A study of Rattus norvegicus with 9 samples.

Results

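The 6 libraries of rats given either K4 or ketamine were taken as one treated group and set against the 3 libraries of untreated rats, which together are all 9 libraries of the series. All libraries were made from medial prefrontal cortex taken on day 15. The animals were Wistar Kyoto rats, an inbred strain in which passive, depression-like behaviour is common. Control rats were untreated. K4 rats had that compound for 7 days through an intravenous cannula, and Ketamine rats had ketamine under the skin for 7 days. Both treatments then stopped for 7 days before collection. As the labels state no cannula or injection for the Control rats, the parts of drug, route and handling in any difference cannot be told apart. The labels name no vehicle and no dose, and they do not say that each library came from its own animal, so every p-value here measures the spread between these libraries. K4 is known here only by its code, and ketamine is an antagonist of the NMDA type of glutamate receptor with antidepressant use. A gene was kept as separating the groups when it was called with and without removal of the transcript length trend and when all 6 treated libraries lay on the same side of all 3 Control libraries on both scales. By this rule 1129 of 18047 tested genes were kept, 515 higher and 614 lower in the treated libraries. For the kept genes, the call and the lack of overlap between the groups are conditions of this rule and no further evidence.

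The medial prefrontal cortex holds layered excitatory neurons, inhibitory interneurons, astrocytes that clear glutamate and buffer potassium, oligodendrocytes, microglia and blood vessels. Firing of neurons switches on early transcription factors such as Fos and the Egr genes, often through CREB, a factor that binds the cyclic AMP response element in promoters, and these in turn raise slower genes for secreted peptides and synaptic proteins. A second set of transcription factors, the circadian clock, runs a daily loop in most brain cells and acts on promoters through E-box and D-box elements. In bulk tissue fewer cells of a type and less RNA per cell cannot be told apart.

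Treated and Control libraries differed in how their counts varied with transcript length. Length here is the one implied by the authors' deposited counts and FPKM, in kb. Slopes of log2 CPM (counts scaled to a common library size after TMM normalisation) minus the gene's mean over the 9 libraries ran from 0.043 to 0.070 per doubling of length in Control and from −0.066 to 0.0019 in the treated libraries, with no overlap (difference −0.087, exact two-sided permutation p = 0.0238, the smallest that 84 placements allow, 0.101 after adjustment over 17 library values). On the deposited counts the median log2 fold change, treated against Control, went from 0.16 in the shortest of 10 equal length classes of genes to −0.19 in the longest. Once each library's trend was removed as an offset, the median of every class lay between −0.00099 and 0.014. Library totals also did not overlap, at 40863756 to 42731004 counts in Control and 27122207 to 33837450 in the treated libraries, so depth and treatment cannot be told apart.

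**Figure D1:**
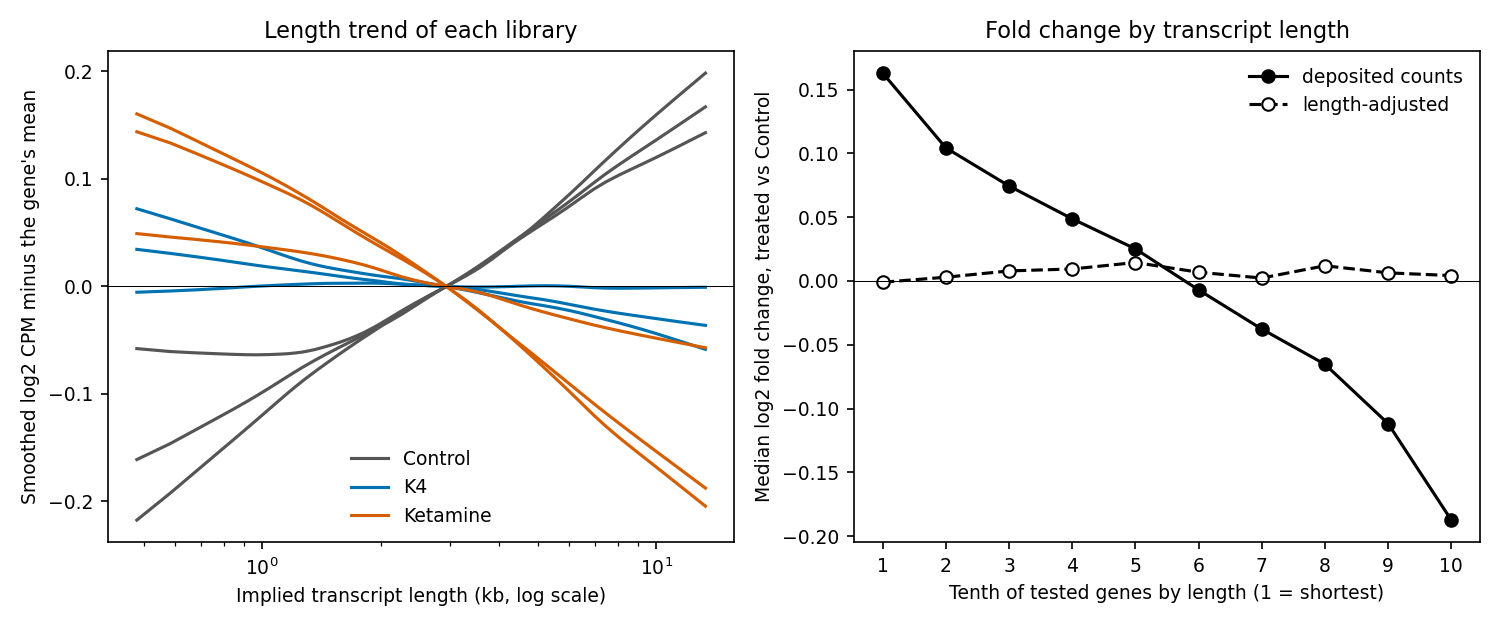
Left, smoothed deviation of log2 CPM from each gene's mean against implied transcript length in kb (log scale), one line per library, set to 0 at the median length; right, median log2 fold change of treated against Control in 10 classes of genes by length, on the deposited counts (filled points) and after removal of the trend (open points). Control lines rise with length while those of K4 and Ketamine are flat or fall, and the right panel goes from 0.16 to −0.19 before and stays within 0.014 of 0 after removal.

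On the deposited counts edgeR called 1280 genes higher (7.09% of those tested) and 1848 lower (10.2%) at an adjusted p below 0.05. With the length trend removed it called 835 higher (4.63%) and 899 lower (4.98%). Calls on the deposited counts were strongly sorted by length: 299 of 1805 genes in the shortest class were higher and 36 lower, against 14 higher and 663 lower in the longest. After removal these were 43 and 72 in the shortest class and 117 and 126 in the longest. Both fits called 582 genes higher (3.22%) and 802 lower (4.44%), and of these 515 (2.85%) and 614 (3.4%), together 6.26%, had no overlap between the groups. Regardless of any call, 1027 genes (5.69%) lay higher and 932 (5.16%) lower in all 6 treated libraries on both scales. With upper quartile in place of TMM normalisation the balance moved towards higher genes, with 1646 higher and 1579 lower on deposited counts, 1132 and 782 after length removal, and 717 and 515 separated.

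Most separations were small. The median length-adjusted log2 fold change was 0.28 among the 515 higher genes and −0.44 among the 614 lower ones. Only 52 higher and 167 lower genes differed by over 1.5-fold, and 23 and 40 by over 2-fold. The lower genes were longer (median 3.62 kb) and the higher ones shorter (2.47 kb) than tested genes at large (2.93 kb), which the required call on the deposited counts, itself sorted by length, selects for. Protein-coding genes made up 474 of the higher and 571 of the lower genes, long non-coding RNAs 11 and 20, and pseudogenes 30 and 16. Single libraries moved these counts: without Control replicate 1, 144 higher and 300 lower genes separated, and 407 of the 1129 remained. In all 9 fits that each left out 1 library, 372 genes remained, 126 of them higher and 246 lower.

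The higher genes with the smallest p or largest change included a sorting receptor, a translation factor's hydroxylase, a membrane transporter and a Golgi protein. Sorcs3, a neuronal sorting receptor of the VPS10 family that handles neurotrophin receptors and synaptic cargo, was the first of these. It stood at 35.0, 30.4 and 34.1 CPM in the Control libraries, 52.0, 52.6 and 51.9 after K4 and 53.7, 55.9 and 48.4 after ketamine. All 6 treated libraries lay well above the highest Control library, and the length-adjusted log2 fold change was 0.80 ± 0.063 (SE), adjusted p = 9.79e-05 by edgeR. Of the other VPS10 receptors, Sorl1 was called only after length removal (0.24, adjusted p = 0.0432, up to 0.144 when 1 library was left out), and Sorcs1, Sorcs2 and Sort1 were not called, at 0.051, 0.027 and 0.040.

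Dohh, the hydroxylase that completes hypusine, the modified lysine of the translation factor eIF5A, was measured at 33.5, 34.1 and 45.4 CPM in the Control libraries, 94.4, 78.9 and 72.6 after K4 and 74.0, 74.5 and 84.1 after ketamine. Every treated library exceeded every Control library by a wide margin, with a log2 fold change of 1.01 ± 0.11 (SE), adjusted p = 0.00153. It was the only separated gene among 14 of hypusine and polyamine metabolism, where 2.85% of all tested genes separated higher. Slc4a11, a membrane transporter of the bicarbonate transporter family, gave 6.89, 9.05 and 7.07 CPM in the Control libraries, 15.1, 14.6 and 15.8 after K4 and 12.7, 16.3 and 11.6 after ketamine. Its change was 0.93 ± 0.12 (SE), adjusted p = 0.00177 and the groups did not overlap. Gfy, a Golgi protein best known from olfactory neurons, had the largest change among the named higher genes, at 0.266, 0.572 and 0.965 CPM in the Control libraries, 2.76, 2.72 and 3.07 after K4 and 2.63, 2.88 and 2.89 after ketamine. All 6 treated libraries lay between 2.63 and 3.07 CPM, and the Control libraries were low and scattered (2.30 ± 0.29 (SE), adjusted p = 0.00153).

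Nfil3, Cyp26b1, Tmem200b, Tmprss5, Mroh5 and the Fibcd1 copies completed the largest higher changes. Cyp26b1, which degrades retinoic acid, was measured at 7.95, 5.98 and 6.21 CPM in the Control libraries, 22.1, 15.6 and 15.4 after K4 and 9.81, 8.05 and 8.22 after ketamine. All treated libraries were higher than Control, yet the K4 libraries stood well above the Ketamine ones, with log2 fold changes of 1.47 for K4 and 0.49 for Ketamine (0.98 ± 0.14 (SE), adjusted p = 0.00218 pooled, and adjusted p = 0.110 for the difference between the drugs). It was the only separated member of 18 retinoic acid genes (of all tested genes 2.85% separated higher). Fibcd1, a chitin-binding receptor, and its near-identical copy Fibcd1l1 gave almost equal values, 2.73, 2.24 and 2.75 CPM in the Control libraries against 3.70 to 4.95 in the treated libraries for Fibcd1, so the counting could split reads between them and each value is uncertain. Mroh5 (0.84) was called in all 9 fits that left out a library, Tmem200b (1.00) in 8 (adjusted p = 0.0702 without Control replicate 1) and Tmprss5 (1.06) in 3 (up to 0.1 without Control replicate 1). Lcn2, a secreted iron-carrier protein induced in inflammation and the only member of the inflammation and interferon list that was called, stood at 0.290, 0.286 and 0.421 CPM in the Control libraries against 0.694 to 2.30 in the treated libraries. Its top value came from K4 replicate 3, without which its adjusted p was 0.0734, and it was called in 3 of the 9 fits that left out a library (up to 0.137 without Control replicate 1).

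**Figure D2:**
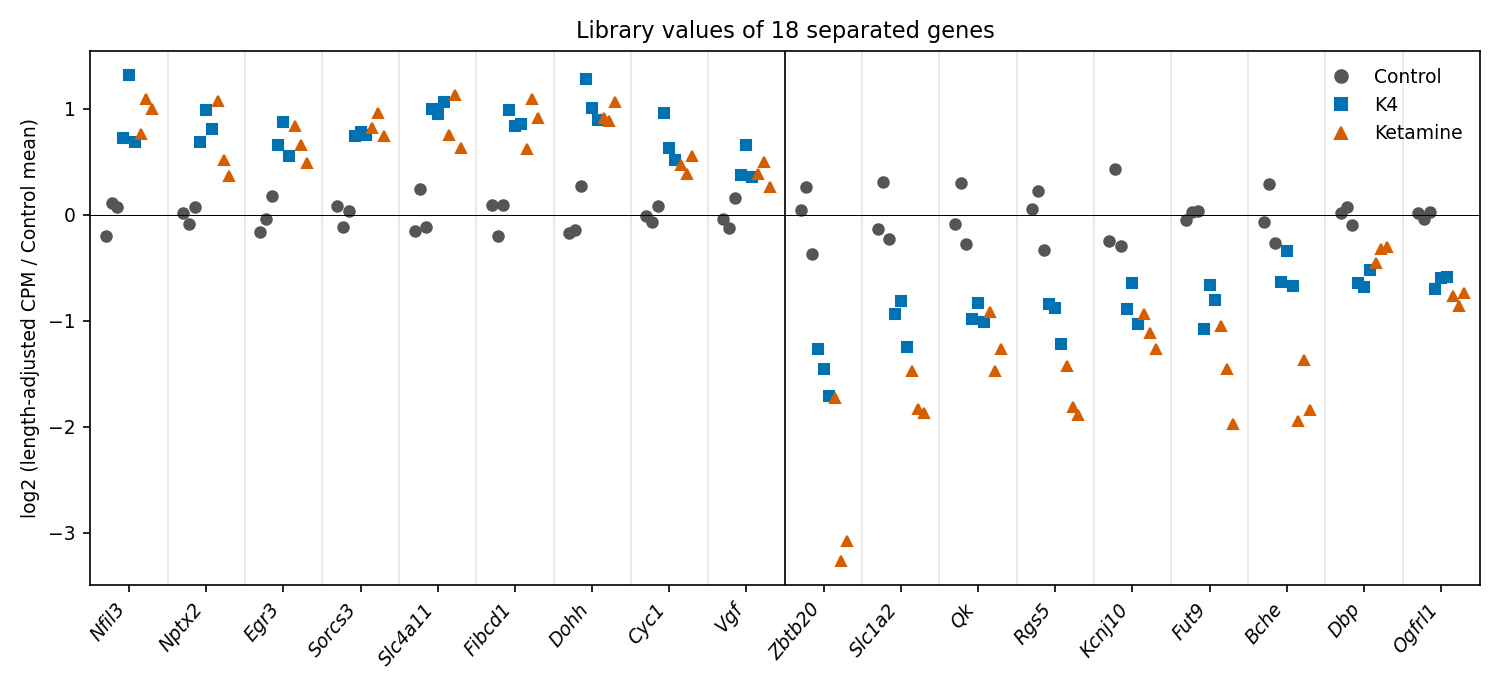
Length-adjusted CPM of 18 separated genes in each library, as log2 of its ratio to the mean of the 3 Control libraries; grey circles are Control, blue squares K4 and orange triangles Ketamine, 1 point per library, higher genes left of the vertical line and lower genes right. As the rule requires, in each gene all treated points lie on the same side of the Control points. Zbtb20 reaches farthest, in the Ketamine libraries.

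Some genes that follow neuronal activity were higher. Of 26 tested activity-regulated genes, 4 separated higher (Egr3, Nptx2, Vgf and Scg2), against 2.85% of all tested genes, and none lower. The list's median log2 fold change was 0.39 against 0.0064 over all tested genes. All gene lists here were chosen with earlier results of these data known. Their counts beside the shares of all genes are therefore description without a test. Egr3, a zinc-finger transcription factor of the early response, was measured at 63.4, 69.1 and 80.3 CPM in the Control libraries, 109, 125 and 100.7 after K4 and 122, 105 and 93.3 after ketamine. All 6 treated values exceeded the highest Control value (0.68 ± 0.099 (SE), adjusted p = 0.00299). Nptx2, a secreted pentraxin that gathers AMPA receptors at synapses onto interneurons, stood at 26.5, 24.7 and 27.7 CPM in the Control libraries, 43.2, 53.6 and 46.9 after K4 and 57.0, 39.1 and 35.3 after ketamine. Its groups were clearly apart (0.76 ± 0.14 (SE), adjusted p = 0.0125), though the call was lost without Control replicate 1 or 2, at adjusted p = 0.0908 without the latter. Vgf, a precursor of neuropeptides that BDNF induces, gave 74.2, 69.9 and 85.1 CPM in the Control libraries, 98.6, 119 and 96.8 after K4 and 98.7, 106 and 90.4 after ketamine. All 6 treated values were higher (0.42 ± 0.083 (SE), adjusted p = 0.0102, and 0.0529 without Control replicate 1). Scg2, the secretogranin II precursor of dense-core vesicles, was named after its values were seen: 143, 111 and 146 CPM in the Control libraries, 155, 185 and 181 after K4 and 168, 180.2 and 171 after ketamine, with 0.37 ± 0.085 (SE), adjusted p = 0.0208 (0.0533 without Ketamine replicate 2).

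Other early genes of the list did not separate. Fos had 9.04, 7.18 and 7.49 CPM in the Control libraries, 12.2, 25.3 and 4.83 after K4 and 5.93, 8.80 and 17.2 after ketamine, and Arc, whose product trims AMPA receptors, had 68.4, 66.7 and 27.4 CPM in the Control libraries, 110.0, 192 and 24.3 after K4 and 55.4, 82.8 and 90.4 after ketamine. In both, K4 replicate 2 was highest and K4 replicate 3 lowest of all 9 libraries, so the treated group spanned the Control group. Log2 fold changes were 0.57 for Fos (adjusted p = 0.586), 0.78 for Arc (0.519), 1.14 for Npas4 (0.234) and 0.031 for Egr1 (0.968). Bdnf, the neurotrophin itself, stood at 27.2, 20.5 and 30.8 CPM in the Control libraries, 36.5, 34.3 and 30.4 after K4 and 29.2, 35.9 and 30.9 after ketamine. Its treated range overlapped Control and its change of 0.40 missed the threshold at adjusted p = 0.0558, while without Control replicate 3 it was called. Without Control replicate 3, 7 of the 26 genes were called higher, and without Control replicate 1, 2 were.

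Promoters of the higher genes held the cyclic AMP response element in a larger share than those of tested genes at large, a description with no test. Promoters, 250 bases before to 50 after the start, were taken from RefSeq (GRCr8) and matched by gene ID for 383 of the 515 higher genes, 442 of the 614 lower ones and 12814 of all 18047. The element TGACGTCA, read on both strands, stood in 24 higher promoters (6.27%), in 9 lower ones (2.04%) and in 373 of all (2.91%). The shorter form TGACG, which lies within the whole element and is counted there too, stood in 36.6%, 24.2% and 29.7%. Over all 373 tested genes with the whole element the median log2 fold change was 0.033, with 219 positive, against 0.0064 over all tested genes. A letter match is no evidence of binding, and the higher genes also differ from the rest in level (median of mean log2 CPM 5.77 against 3.86), whose part in these shares was not tested. Promoters of 3 higher genes with the element, Vgf, Scg2 and Jund, and of 1 lower gene that also holds it, Purb, are shown because the element is found in them whole, with its letters in capitals. Vgf lies at chr12:25276971-25277270, minus strand, Scg2 at chr9:88256817-88257116, minus strand, Jund at chr16:18769722-18770021, minus strand and Purb at chr14:85558730-85559029, minus strand, all GRCr8.
Vgf: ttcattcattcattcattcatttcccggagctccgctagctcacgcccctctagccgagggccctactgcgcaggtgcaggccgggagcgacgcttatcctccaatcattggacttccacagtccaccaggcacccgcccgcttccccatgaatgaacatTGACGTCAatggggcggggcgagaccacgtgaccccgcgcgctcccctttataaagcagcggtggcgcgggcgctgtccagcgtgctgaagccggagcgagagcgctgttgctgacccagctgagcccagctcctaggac
Scg2: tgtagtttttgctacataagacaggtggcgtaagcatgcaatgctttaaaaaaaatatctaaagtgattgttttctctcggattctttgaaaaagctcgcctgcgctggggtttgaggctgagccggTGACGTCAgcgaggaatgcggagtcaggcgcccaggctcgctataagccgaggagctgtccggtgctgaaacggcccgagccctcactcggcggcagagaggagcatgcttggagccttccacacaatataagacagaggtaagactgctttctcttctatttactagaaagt
Jund: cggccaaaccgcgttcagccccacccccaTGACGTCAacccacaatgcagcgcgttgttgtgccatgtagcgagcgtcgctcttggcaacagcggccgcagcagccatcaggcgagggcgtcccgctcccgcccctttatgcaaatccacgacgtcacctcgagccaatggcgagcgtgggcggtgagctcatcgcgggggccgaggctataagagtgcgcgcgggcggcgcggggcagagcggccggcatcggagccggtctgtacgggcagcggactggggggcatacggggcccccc
Purb: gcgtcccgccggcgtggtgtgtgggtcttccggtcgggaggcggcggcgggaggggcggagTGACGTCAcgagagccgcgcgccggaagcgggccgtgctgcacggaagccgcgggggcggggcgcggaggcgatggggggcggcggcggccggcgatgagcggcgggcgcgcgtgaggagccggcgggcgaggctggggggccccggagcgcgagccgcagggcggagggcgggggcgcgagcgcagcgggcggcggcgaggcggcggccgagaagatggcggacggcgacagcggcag
The element begins 90 bases before the start in Vgf, 123 in Scg2, 221 in Jund and 189 in Purb. Jund, a member of the AP-1 family, was measured at 72.2, 69.1 and 67.4 CPM in the Control libraries, 91.0, 93.8 and 82.9 after K4 and 96.9, 92.3 and 96.2 after ketamine. All treated values were higher (0.35 ± 0.052 (SE), adjusted p = 0.00267), and Jund was chosen for display after its values were seen. Purb, a single-stranded DNA and RNA binding protein, went the other way, at 94.4, 111 and 90.7 CPM in the Control libraries against 54.8 to 78.7 in the treated libraries (−0.53 ± 0.079 (SE), adjusted p = 0.00283).

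The other motifs were searched in the same way on both strands. The E-box CACGTG stood in 9.40% of higher, 8.82% of lower and 8.95% of all promoters. The early growth response site GCGGGGGCG stood in 7.57%, 6.33% and 4.95%, and the nuclear receptor site AGGTCA in 7.57%, 10.2% and 12.1%. TATAAA was found in 6.27%, 6.33% and 7.66%, and CCAAT in 38.6%, 35.8% and 37.1%. The D-box form TTATGTAA stood in 0.522%, 0.679% and 0.507%, and the form TTATGCAA in 0.783%, 0.905% and 0.632%. Median GC content was 61.0% in higher, 63.7% in lower and 60.0% in all promoters.

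Clock genes differed in both directions, most of them lower. Of 19 tested genes of the clock loop and its output, 2 separated higher and 7 lower, against 2.85% and 3.4% of all tested genes. After length removal the list median was −0.22, against 0.0064 over all tested genes. Nfil3, a repressor that competes for D-box elements, stood at 3.09, 3.85 and 3.76 CPM in the Control libraries, 5.88, 8.89 and 5.74 after K4 and 6.05, 7.59 and 7.12 after ketamine. Every treated library was higher (0.95 ± 0.16 (SE), adjusted p = 0.00498). Dbp, the activator that binds the same elements, stood at 165, 172 and 152 CPM in the Control libraries, 108, 105 and 118 after K4 and 124, 138 and 139 after ketamine. Every treated library was lower (−0.49 ± 0.056 (SE), adjusted p = 0.000966), with log2 fold changes of −0.61 for K4 and −0.36 for Ketamine. The repressor was higher and the activator lower. A shared side in all 6 treated libraries is a condition of the rule for both.

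Receptors and repressors of the loop were lower too. Nr1d2, a nuclear receptor that represses Arntl, gave 152, 148 and 145 CPM in the Control libraries, 106, 105 and 105 after K4 and 109.7, 103 and 115 after ketamine. The treated libraries lay in a narrow band below Control (−0.37 ± 0.046 (SE), adjusted p = 0.00153). Bhlhe41, a repressor acting at E-boxes, gave 73.2, 79.0 and 64.9 CPM in the Control libraries, 52.2, 51.1 and 55.3 after K4 and 54.6, 56.9 and 55.8 after ketamine (−0.38 ± 0.060 (SE), adjusted p = 0.00322). Arntl, the activator that pairs with Clock, was higher at 0.33 (adjusted p = 0.00335), and Cry1 (−0.57), Per3 (−0.38), Ciart (−0.53) and Nr1d1 (−0.22) were lower. These 5 were named after their values were seen. The Nr1d1 call was lost in 6 of the 9 fits that left out a library, with adjusted p up to 0.197, and that of Ciart without Control replicate 1 (0.102). Per2 was called lower (−0.31, adjusted p = 0.0217) but the groups overlapped after length removal, and Clock (0.074), Per1 (−0.042) and Cry2 (−0.00047) were not called. The labels give no hour of dissection, so an hour that differed between groups and treatment cannot be told apart.

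The promoters of Bhlhe41 and Ciart are shown because both genes were lower and both hold the E-box CACGTG (capitals) that the clock activators bind. Bhlhe41 lies at chr4:180569306-180569605, minus strand and Ciart at chr2:186112197-186112496, minus strand, both GRCr8.
Bhlhe41: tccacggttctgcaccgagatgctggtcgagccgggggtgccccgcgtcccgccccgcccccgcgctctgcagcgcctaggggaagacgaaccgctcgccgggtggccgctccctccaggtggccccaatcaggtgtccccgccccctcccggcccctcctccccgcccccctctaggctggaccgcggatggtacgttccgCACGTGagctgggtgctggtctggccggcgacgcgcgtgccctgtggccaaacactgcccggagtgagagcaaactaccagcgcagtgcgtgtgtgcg
Ciart: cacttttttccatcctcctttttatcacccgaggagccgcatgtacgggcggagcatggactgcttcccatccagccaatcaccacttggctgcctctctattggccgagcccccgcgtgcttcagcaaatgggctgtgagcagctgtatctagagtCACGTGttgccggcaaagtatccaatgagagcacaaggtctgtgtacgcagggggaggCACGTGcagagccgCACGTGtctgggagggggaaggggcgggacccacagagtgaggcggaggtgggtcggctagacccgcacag
In Bhlhe41 the E-box begins 48 bases before the start, and in Ciart there are 3, beginning 93, 35 and 21 bases before it. As the share of all promoters with an E-box was 8.95%, a match alone says little about either gene.

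Several astrocyte markers were lower, and Slc1a2 was among the largest lower changes. Slc1a2, which encodes the main glutamate transporter of astrocytes, stood at 413, 572 and 382 CPM in the Control libraries, 252, 278 and 205 after K4 and 177, 143 and 139 after ketamine. The highest treated library, K4 replicate 2, was still far below the lowest Control library (−1.35 ± 0.14 (SE), adjusted p = 0.00177). Kcnj10, the inward rectifier potassium channel of astrocytes, gave 91.8, 148 and 89.2 CPM in the Control libraries, 60.1, 71.3 and 54.4 after K4 and 58.3, 51.9 and 46.8 after ketamine. Control replicate 2 was far above the other Control libraries, yet all treated values were below the other Control libraries too (−0.97 ± 0.17 (SE), adjusted p = 0.0131). Grm3, a glutamate receptor of astrocytes and neurons, stood at 394, 451 and 359 CPM in the Control libraries, 221, 228 and 208 after K4 and 201, 155 and 168 after ketamine, all treated values below Control (−0.82 ± 0.077 (SE), adjusted p = 0.00033). Of 14 astrocyte markers 7 were called lower and 6 of them separated, Slc1a2, Kcnj10, Aqp4 (a water channel, −0.50), Slc4a4 (−0.47), Gja1 (−0.43) and Aldh1l1 (−0.39), while Slc1a3 (−0.51) was called without separating. Among all tested genes 4.98% were called lower and 3.4% separated lower. The median of the astrocyte list was −0.37, and Gfap (0.099), Aldoc (−0.097) and Gjb6 (−0.022) were not called.

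The astrocyte count rested on single libraries more than the change in Slc1a2 did. It was 2 of 14 without Ketamine replicate 2, 3 without Control replicate 1 or K4 replicate 3, 4 without K4 replicate 1, Ketamine replicate 1 or Ketamine replicate 3, and without Control replicate 2 6 were called lower and 2 higher. Slc1a2 and Kcnj10 were called in all 9 of these fits, with adjusted p at most 0.00668 without Control replicate 1 and 0.0346 without Ketamine replicate 2. Aqp4 was called in 7 of them (0.0594 without Control replicate 1), Slc4a4 in 6 (0.0719 without Control replicate 1), and Gja1 and Aldh1l1 in 2 each (0.0862 without Ketamine replicate 2 and 0.115 without Control replicate 2). The summed level of the 14 markers was 5218, 7299 and 4628 CPM in Control and 4158 to 4844 in the treated libraries, so Control replicate 3 lay within the treated range (exact two-sided permutation p = 0.0476, 0.147 after adjustment over 17 values). Control replicate 2 had the highest summed astrocyte, oligodendrocyte precursor, microglial, endothelial and mural markers of the 9 libraries, and also the highest mitochondrial share. Its part in the glial and vascular results was not tested beyond leaving it out.

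Some vascular and microglial markers were lower: 3 of 10 mural, 4 of 12 endothelial and 3 of 11 microglial markers were called. The share of all tested genes called lower was 4.98%. Rgs5, a regulator of G-protein signalling that marks pericytes, stood at 33.3, 39.5 and 24.6 CPM in the Control libraries, 19.6, 19.9 and 15.4 after K4 and 13.5, 11.1 and 10.4 after ketamine. The Ketamine libraries were lowest, K4 between and Control highest, with no overlap of treated with Control (−1.34 ± 0.13 (SE), adjusted p = 0.00091). Notch3, a receptor of mural cells, stood at 26.6, 31.6 and 24.3 CPM in the Control libraries against 11.8 to 18.8 in the treated libraries (−0.71 ± 0.11 (SE), adjusted p = 0.00345), and these 2 mural markers separated. Abcc9, the third mural marker called, did not separate. It was called in 3 of the 9 fits that left out a library (adjusted p up to 0.0836 without Control replicate 1). Abcb1a, the drug efflux pump of brain capillaries, gave 63.7, 89.6 and 61.3 CPM in the Control libraries against 31.4 to 46.4 in the treated libraries (−0.70 ± 0.11 (SE), adjusted p = 0.00556). Flt1, a VEGF receptor, gave 105, 129.8 and 84.3 CPM in the Control libraries against 47.0 to 75.9 in the treated libraries (−0.62 ± 0.13 (SE), adjusted p = 0.0167, and 0.0583 without Control replicate 1). Without Control replicate 1, 2 endothelial markers were called. The summed endothelial level did not overlap, at 618, 804 and 564 CPM in Control and 395 to 541 in the treated libraries (exact two-sided permutation p = 0.0238, the smallest possible, 0.101 adjusted). P2ry12 (−0.59 ± 0.11 (SE), adjusted p = 0.00934) and Cx3cr1 (−0.46 ± 0.083 (SE), adjusted p = 0.00635), receptors of resting microglia, both separated. Without Control replicate 2 the median of the microglial list was 0.010, against −0.26 with all libraries, and 3 were still called. Of the others, the complement genes C1qa (−0.058), C1qb (−0.040) and C1qc (0.038) were not called.

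The other large lower changes were in genes of various functions. Zbtb20, a zinc-finger repressor expressed in astrocytes and in hippocampal and cortical neurons, had the largest change among the named lower genes. It stood at 13.9, 16.1 and 10.5 CPM in the Control libraries, 5.25, 4.52 and 3.82 after K4 and 3.73, 1.21 and 1.39 after ketamine. Ketamine replicates 2 and 3 were lowest, and no treated library overlapped Control (−1.98 ± 0.26 (SE), adjusted p = 0.00279). Qk, an RNA-binding protein of glia, stood at 39.1, 51.4 and 34.1 CPM in the Control libraries against 16.4 to 24.6 in the treated libraries (−1.07 ± 0.13 (SE), adjusted p = 0.00203). Bche, butyrylcholinesterase, gave 3.60, 4.63 and 3.14 CPM in the Control libraries, 2.49, 3.06 and 2.43 after K4 and 1.01, 1.53 and 1.10 after ketamine, again with Ketamine below K4 and no overlap (−1.12 ± 0.18 (SE), adjusted p = 0.00341). Fut9, a fucosyltransferase that makes the Lewis X sugar, was measured at 16.5, 17.4 and 17.5 CPM in the Control libraries and at a median of 8.30 in the treated ones, from 4.46 in Ketamine replicate 3 to 10.9999 in K4 replicate 2 (−1.14 ± 0.15 (SE), adjusted p = 0.00198). Dok6 (−1.22), an adaptor of receptor tyrosine kinases, Epb4.1l5 (−1.28), a membrane skeleton protein, and Zfp366 (−1.27), a zinc-finger protein, completed the list of largest lower changes with the transfer RNA gene Trne.

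Among the lower genes named for a small p or as list members were a kinase and a cell adhesion gene. Ogfrl1, a relative of the opioid growth factor receptor, stood at 39.3, 37.8 and 39.6 CPM in the Control libraries, 24.7, 26.7 and 26.7 after K4 and 23.8, 22.7 and 24.5 after ketamine. Both groups were tight and far apart (−0.71 ± 0.056 (SE), adjusted p = 9.79e-05). Cadm2, a synaptic adhesion molecule, gave 42.1, 41.4 and 44.0 CPM in the Control libraries against 25.5 to 31.6 in the treated libraries (−0.65 ± 0.055 (SE), adjusted p = 0.000133). Taok1, a kinase of the MAP kinase cascade, gave 72.02, 72.4 and 75.3 CPM in the Control libraries, 50.8, 47.7 and 47.7 after K4 and 42.8, 32.8 and 34.2 after ketamine, with K4 nearer to Control than Ketamine (−0.76 ± 0.069 (SE), adjusted p = 0.000234). All 3 genes were called in each fit that left out 1 library.

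Several genes of neurotrophin and mTOR signalling were lower. Of 22 tested, 5 separated lower (3.4% of all tested genes did), among them Eef2k, Eif4ebp2 and Ntrk2, and none higher. Rptor was called higher after length removal alone (0.22, adjusted p = 0.0123, and 0.0592 without Control replicate 1). Ntrk2, the receptor for BDNF, stood at 907, 1194 and 836 CPM in the Control libraries, 707, 732 and 645 after K4 and 651, 578 and 581 after ketamine. All 6 treated libraries were below Control (−0.44 ± 0.096 (SE), adjusted p = 0.0161). Eef2k, the kinase that slows translation elongation, gave 31.0, 37.9 and 37.5 CPM in the Control libraries against 25.3 to 30.0 in the treated libraries (−0.36 ± 0.071 (SE), adjusted p = 0.01). Mtor (0.13), Creb1 (−0.14) and Gsk3b (−0.11) were not called.

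Glutamate receptor genes changed in few members. Among all tested genes 2.85% separated higher and 3.4% lower. Of 17 ionotropic receptor genes 1 separated higher and 1 lower, Grik1, a kainate receptor subunit (−0.31, adjusted p = 0.0486, called in 1 of the 9 fits that left out a library, and 0.152 without Control replicate 2). Grin1, the subunit that every NMDA receptor contains, stood at 405, 378 and 451 CPM in the Control libraries, 488, 496 and 485 after K4 and 493, 497 and 457 after ketamine. The lowest treated library, Ketamine replicate 3, lay just above the highest Control library (0.32 ± 0.060 (SE), adjusted p = 0.0071). Grin2a (−0.046), Grin2b (0.16), Gria1 (0.040) and Gria2 (−0.013) were not called, and for Gria1, Gria2 and Grin2a the sign itself changed when single libraries were left out. On the deposited counts the estimates were −0.14 for Grin2b and −0.18 for Gria2, whose implied lengths were 16.8 and 7.69 kb. Grm3 and Grm5 were the metabotropic receptors that separated, with −0.27 for Grm5 (adjusted p = 0.0217, lost in 5 of the 9 fits that left out a library, and 0.107 without Control replicate 1).

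Genes of GABA synthesis, uptake and reception were among those that separated. Gad2, one of the enzymes that make GABA, stood at 79.2, 68.4 and 77.5 CPM in the Control libraries, 59.9, 61.2 and 56.0 after K4 and 56.2, 48.1 and 41.1 after ketamine. All treated values were lower (−0.53 ± 0.085 (SE), adjusted p = 0.00412), while Gad1, the other enzyme, was not called (−0.021, adjusted p = 0.848). Gabbr2, a subunit of the metabotropic GABA receptor, was higher at 456, 413 and 487 CPM in the Control libraries against 494 to 533 in the treated libraries (0.32 ± 0.057 (SE), adjusted p = 0.00557), and Gabra2, a subunit of the ionotropic receptor, lower at 262, 250.4 and 245 CPM in the Control libraries against 186 to 211 in the treated libraries (−0.29 ± 0.051 (SE), adjusted p = 0.00522). The astrocytic GABA transporter Slc6a11 was lower at −0.63 (adjusted p = 0.00578). The full list of 20 gave 2 separated higher and 6 lower (4 called lower without Control replicate 1), against 2.85% and 3.4% of all tested genes separated. The summed level of 19 interneuron markers did not separate, at 889 to 1034 CPM in Control and 976 to 1054 in the treated libraries (exact permutation p = 0.190).

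Scaffold and matrix genes of the synapse fell in part. Of 21 postsynaptic scaffold genes 5 separated lower and none higher, against 11 called lower on the deposited counts. Over all tested genes 3.4% separated lower and 10.2% were called lower on the deposited counts. Shank1 stood at 722, 972 and 721 CPM in the Control libraries, 619, 555 and 547 after K4 and 505, 399 and 371 after ketamine, a broad range after treatment without overlap (−0.53 ± 0.11 (SE), adjusted p = 0.0129). Homer2, which ties metabotropic receptors to calcium stores, gave 15.3, 21.5 and 15.3 CPM in the Control libraries against 8.71 to 12.7 in the treated libraries (−0.75 ± 0.15 (SE), adjusted p = 0.00974), and Cnksr2 gave 313, 302 and 312 CPM in the Control libraries against 200.2 to 248 in the treated libraries (−0.39 ± 0.054 (SE), adjusted p = 0.00203). Of 12 matrix genes around neurons 5 separated lower (3 called without Control replicate 1), among them Hapln1, the link protein of perineuronal nets (92.9, 109.9 and 74.6 CPM in the Control libraries against 51.0 to 58.3 in the treated libraries, −0.65 ± 0.099 (SE), adjusted p = 0.00392), Vcan (−0.54) and Ncan (−0.28), while Acan, the core proteoglycan of those nets, was not called (0.028, adjusted p = 0.957). Syp, a synaptic vesicle protein, was higher at 0.32 ± 0.071 (SE), adjusted p = 0.0148, a call lost without Control replicate 1 (0.0540).

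Of the receptors for noradrenaline, Adra1a was lower and Adra1d higher. Adra1a stood at 25.9, 25.4 and 25.7 CPM in the Control libraries, 19.9, 18.5 and 19.5 after K4 and 16.4, 12.7 and 12.5 after ketamine. Control values were nearly equal and every treated value lay below them (−0.57 ± 0.079 (SE), adjusted p = 0.00203). Adra1d stood at 31.6, 32.4 and 43.4 CPM in the Control libraries, 45.7, 45.0 and 48.4 after K4 and 54.5, 46.9 and 50.8 after ketamine, where Control replicate 3 came close to the lowest treated value (0.46 ± 0.094 (SE), adjusted p = 0.0126, and 0.0659 without Control replicate 1). Pdyn, the precursor of the dynorphin opioid peptides, was higher at 17.9, 15.9 and 19.2 CPM in the Control libraries against 22.0 to 25.8 in the treated libraries (0.39 ± 0.081 (SE), adjusted p = 0.0111). Of the 26 monoamine and opioid genes tested no other separated, and no serotonin or dopamine receptor was called after length removal. The shares of all tested genes that separated were 2.85% higher and 3.4% lower.

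Genes of the mitochondrial genome were lower, and few nuclear genes of the same complexes passed the test. All 13 mitochondrially encoded protein genes were called lower after length removal (11 on the deposited counts) and 6 separated, with a median of −0.73. For all tested genes these shares were 4.98% (10.2% on the deposited counts) and 3.4%. ND4L, a subunit of complex I, stood at 2013, 2861 and 1493 CPM in the Control libraries, 1109, 1249 and 1128 after K4 and 1265, 1108 and 1301 after ketamine (−1.04 ± 0.13 (SE), adjusted p = 0.00198). ND6, the one protein gene on the light strand, stood at 314, 419.9 and 244 CPM in the Control libraries, 179, 189 and 168 after K4 and 204, 174 and 199.5 after ketamine (−1.002 ± 0.12 (SE), adjusted p = 0.00217). In both genes all treated libraries were lower, and Control replicate 2 was highest. The 13 genes took 14.6%, 18.95% and 11.6% of counts in Control and 10.4% to 11.8% in the treated libraries, so Control replicate 3 overlapped (difference −3.94 percentage points, exact two-sided permutation p = 0.0714, 0.147 adjusted, and −1.99 points without Control replicate 2). Without Control replicate 2, 11 of the 13 were still called lower. On the deposited counts their median was −0.59, at a median implied length of 0.894 kb.

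Of 79 nuclear genes of oxidative phosphorylation, 37 were called higher and none lower on the deposited counts, but 4 higher and 2 lower after length removal. The 4 higher genes separated, against 2.85% of all tested genes. Without Control replicate 1 the calls after length removal were 1 higher and 0 lower, and without Control replicate 3 they were 8 and 0. Their median implied length was 0.779 kb against 2.93 kb for all tested genes. Cyc1, cytochrome c1 of complex III, changed most, at 119, 115 and 127 CPM in the Control libraries, 246, 198 and 182 after K4 and 179, 174 and 195 after ketamine. Every treated library exceeded Control by a wide margin, K4 replicate 1 most (0.59 ± 0.087 (SE), adjusted p = 0.00273). Uqcr11 (0.20), Atp5d (0.25) and Cox7c (0.22), the last named after its values were seen, were the other separated ones, and each lost its call without Control replicate 1 (adjusted p = 0.0678, 0.0554 and 0.157).

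Counts in other lists of short or long genes also differed between the fits. Over all tested genes 7.09% were called higher and 10.2% lower on the deposited counts, and 4.63% and 4.98% after length removal. Separated genes made up 2.85% (higher) and 3.4% (lower) of all tested genes. Cytosolic ribosomal proteins, with a median of 0.654 kb, went from 11 higher and none lower of 78 to 1 higher and 4 lower, or 6 and 0 without Control replicate 2 and 1 and 9 without Control replicate 3. Proteasome subunits went from 17 to 6 higher of 39, none lower in either fit, and Psmb7 (0.25), Psmd3 (0.30) and Psmc3 (0.24) were among the 6 that separated. Without Control replicate 1 Psmd3 and Psmc3 lost their calls (0.0543 and 0.0854). That proteasome count was 1 without Control replicate 1 and 3 without Ketamine replicate 2. Chromatin regulators, at a median of 9.57 kb, went from 1 higher and 19 lower of 31 to 3 higher and none lower (1 and 1 without Control replicate 1). Voltage-gated ion channels, at 8.03 kb, went from 1 higher and 10 lower of 30 to 7 higher and 3 lower (0 and 1 without Control replicate 1, 6 and 9 without Control replicate 2, 11 and 1 without Control replicate 3), and 1 separated. Nedd8, the ubiquitin-like modifier (60.4, 57.4 and 60.2 CPM in the Control libraries against 75.9 to 85.9 in the treated libraries, 0.30 ± 0.050 (SE), adjusted p = 0.00405), and Vps28, an ESCRT-I subunit (51.0, 49.5 and 53.1 CPM in the Control libraries against 61.0 to 75.6 in the treated libraries, 0.28 ± 0.052 (SE), adjusted p = 0.00744), were called on both scales. So was the long gene Cecr6 (45.5, 48.3 and 53.0 CPM in the Control libraries against 53.1 to 65.9 in the treated libraries, implied length 9.22 kb, 0.46 ± 0.064 (SE), adjusted p = 0.00198).

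**Figure D3:**
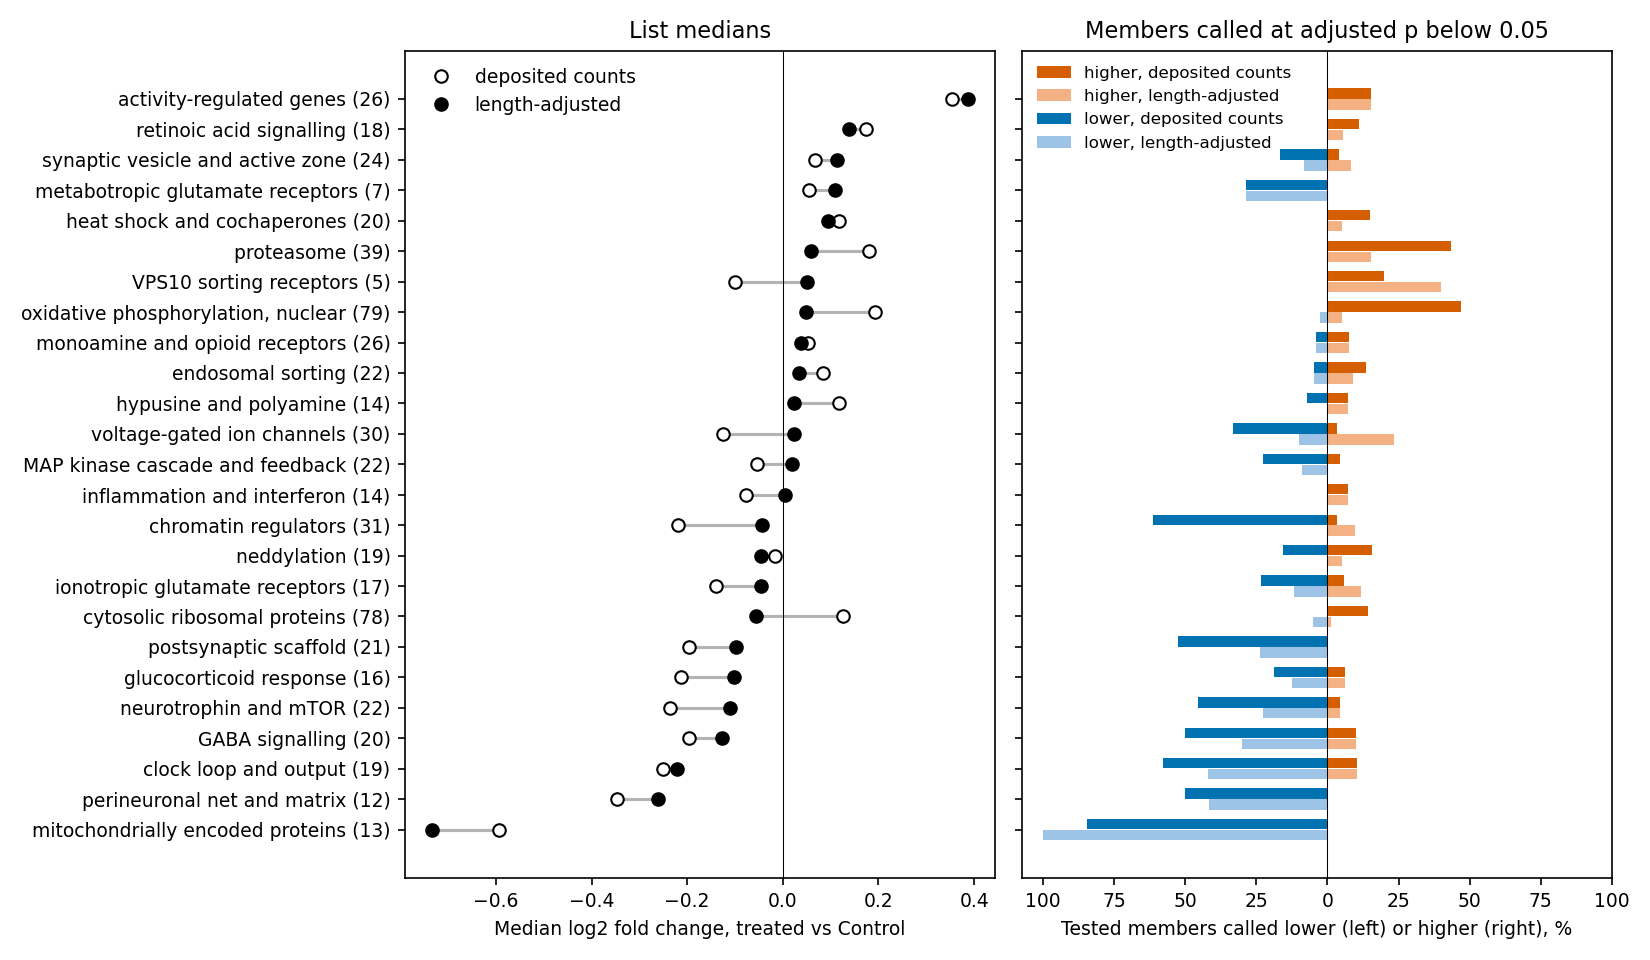
For 25 pathway lists (tested genes in brackets), left, the median log2 fold change of treated against Control on the deposited counts (open) and after removal of the length trend (filled); right, the percentage of tested members called lower (left of 0) or higher (right of 0) by edgeR, dark bars for the deposited counts and pale bars after removal. Medians of the oxidative phosphorylation, proteasome, ribosomal and chromatin lists lie nearer 0 after removal, while the activity-regulated, clock and mitochondrially encoded lists have medians of 0.39, −0.22 and −0.73.

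The drugs themselves were not told apart gene by gene. No gene of 18047 was called between K4 and Ketamine by edgeR in either fit, though 1398 (7.75%) had an unadjusted p below 0.05 after length removal. DESeq2 called 19 of the 1289 genes that separated in its own fit. In its own separated sets edgeR called up to 12, of 940 without Ketamine replicate 1, and 5 of 1122 without Control replicate 2. Among the 515 higher genes of the main fit 33 had an unadjusted p below 0.05, and among the 614 lower ones 149. The 95% interval of the difference lay within 1.5-fold either way for 483 of 515 and 486 of 614, against 12382 of all 18047, so for the others a larger difference cannot be set aside. The estimate was farther from Control in Ketamine than in K4 for 353 of the higher and 452 of the lower genes. The single-drug comparisons share the Control libraries. After length removal K4 alone had 154 of the higher and 177 of the lower genes called, and Ketamine alone 386 and 488. Over all tested genes K4 had 224 higher (1.24%) and 205 lower (1.14%) and Ketamine 651 (3.61%) and 769 (4.26%). Of the separated genes, 104 and 99 were called only with both drugs together. As these libraries chose the members, nothing is read from those counts. For Rgs5 the log2 fold changes were −0.97 for K4 and −1.70 for Ketamine, for Slc1a2 −0.99 for K4 and −1.72 for Ketamine, for Bche −0.54 for K4 and −1.70 for Ketamine, and for Gfy 2.30 for K4 and 2.31 for Ketamine.

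The remaining marker lists checked the tissue and its neighbours. Cortical excitatory markers were present, with 14 upper-layer genes summing to 1040 to 1065 CPM in Control and 861 to 997 in the treated libraries, without overlap (exact two-sided permutation p = 0.0238, 0.101 adjusted), and 17 deep-layer genes to 558 to 686 and 669 to 792. After length removal 5 of the 14 upper-layer markers were called lower and none higher (median −0.12). Of the 17 deep-layer ones 2 were called higher and 1 lower (median 0.16), or 0 and 1 without Control replicate 1. The shares of all tested genes were 4.63% higher and 4.98% lower. Of the upper-layer markers Cux2 (−0.28 ± 0.062 (SE), adjusted p = 0.0152) and Unc5d (−0.32 ± 0.065 (SE), adjusted p = 0.0108) separated, the latter lost without Control replicate 1 (0.0739). Of 12 choroid plexus and ependyma markers, Folr1, Clic6, Otx2 and Tmem212 had no count in any library and Ttr reached at most 0.153 CPM. The other 7 were present in every library, up to 23.0 CPM for Enkur, 12.2 for Rarres2 and 5.16 for Kcnj13. None of the 7 was called, and their median was 0.21. The striatal factors Isl1 and Six3 were at 0 throughout. Meningeal markers summed to 567 to 904 CPM in Control and 459 to 1606 in the treated libraries, K4 replicate 2 lowest and Ketamine replicate 1 highest. None of the 11 meningeal genes was called, but 8 estimates were positive and the median of 0.77 was the largest of any list. Without K4 replicate 2, 5 of the 11 were called higher (median 0.97), and without Control replicate 1, 1 was (median 1.09). Blood markers summed to 71.6 to 134 and 54.7 to 153 CPM.

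Other lists held few separated genes, and counts of 1 in 19 to 24 lie near the shares of all tested genes (2.85% higher and 3.4% lower). The synaptic vesicle list of 24 had 1, Syp, while Rims1 (−0.38) and Rims2 (−0.20), scaffolds of the release site, were called lower without separating, though in only 3 and 2 of the 9 fits that left out a library. Of 22 endosomal sorting genes Vps28 and Chmp7 (0.17) separated higher and Vps37a (−0.36), another ESCRT-I subunit, lower. Of 16 glucocorticoid response genes 1 separated, Nr3c1, the glucocorticoid receptor (−0.18, adjusted p = 0.0477), and Klf9, a transcription factor the receptor induces, was called lower (−0.33) without separating. Of 20 heat shock genes 1 separated higher, Hspa8, a constitutive chaperone (0.25), and of 19 neddylation genes Nedd8 alone. Of the deep-layer markers Crym, a thyroid hormone binding protein (0.38, adjusted p = 0.019, lost without Control replicate 1 at 0.0782), separated higher and Ntsr1, a neurotensin receptor of deep-layer neurons (−0.90, adjusted p = 0.0222), lower. In the 9 fits with 1 library omitted, Chmp7 and Nr3c1 were called in 1 (adjusted p up to 0.0924 and 0.199, both without Control replicate 1), Hspa8 in 2 (up to 0.0861), and Vps37a and Ntsr1 in 7 (up to 0.111 without Control replicate 1 and 0.0977 without Control replicate 2). Of 10 oligodendrocyte precursor markers 2 were called lower, against 4.98% of all tested genes: Sox6, which separated (−0.49), and Gpr17, which did not. Of those 10, 0 had a positive estimate, and the list median was −0.21. The Gpr17 call was lost without Control replicate 1 (adjusted p = 0.0558 by edgeR). Of 14 oligodendrocyte markers none was called.

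**Figure D4:**
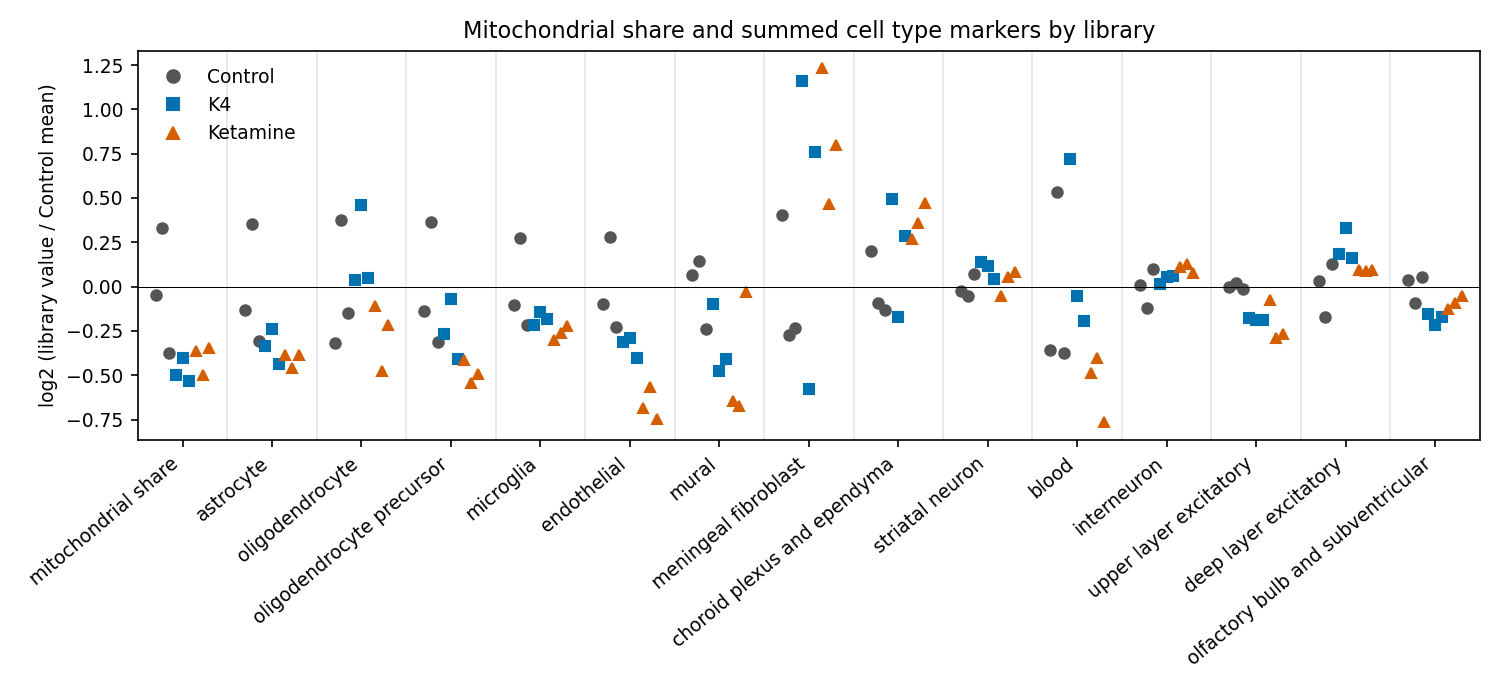
Share of counts on the 13 mitochondrially encoded protein genes and summed CPM of 14 marker lists, each library as log2 of its ratio to the Control mean (grey circles Control, blue squares K4, orange triangles Ketamine). Endothelial and upper-layer sums of the 6 treated libraries lie below all 3 Control libraries, while Control replicate 2 stands above the other libraries for the mitochondrial share and for astrocyte, oligodendrocyte precursor and microglial markers.

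At the edge of the rule the separations were thin. Mrps15, a protein of the mitochondrial ribosome, was the higher gene with the smallest gap on the length-adjusted scale, with 28.6, 24.5 and 27.1 CPM in the Control libraries against 28.9 to 35.6 in the treated libraries. Kdm7a, a histone demethylase, was the lower one, with 47.1, 50.9 and 50.5 CPM in the Control libraries against 32.4 to 41.4 in the treated libraries. These CPM are not length-adjusted, so they do not show the gap by which the genes were ranked. In the 9 fits that left out a library, Mrps15 was called in 3, Kdm7a in 2, and Vstm2b and Per2, described next, in 1 and 5. Just outside were Vstm2b, higher (28.4, 22.8 and 30.6 CPM in the Control libraries against 31.0 to 37.7 in the treated libraries), and Per2, lower (86.1, 98.8 and 103 CPM in the Control libraries against 65.9 to 79.4 in the treated libraries). Their groups were apart in these CPM but overlapped once the length trend was removed.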

How the data were processed

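The authors deposited read counts per gene (37991 genes) and, per the file headers, FPKM and TPM per gene and library. The submitters' processing notes list StringTie 2.1.3b, HISAT2 2.1.0, Trimmomatic and bcl2fastq 2.20.0 and the build rn6, without roles. For the counting step no tool or strand setting is given, so genes with antisense or overlapping partners are uncertain. The kit was a stranded mRNA kit on 1.3 µg of total RNA, per the labels. The deposited TPM stood in a fixed ratio to FPKM, within 0.1% in all but at most 1 gene per library with FPKM above 1, and was not tested.

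The members, lists and tests were chosen with earlier results of these data known. Counts were fitted in R 4.3.3 with edgeR 4.0.16 (TMM, filterByExpr with minimum count 10 and total 15, robust quasi-likelihood, 3 groups, 18047 genes), taking the mean of K4 and Ketamine minus Control, Benjamini-Hochberg adjusted over all genes. Length was the median over libraries of that implied by counts and FPKM. Each library's lowess trend (span 0.5) of log2 CPM, minus the gene's mean, on log2 length entered as an offset. Standard errors were the log2 fold change over the square root of the quasi-likelihood F. Printed CPM are TMM-normalised without that offset, and log2 fold changes are length-adjusted unless stated. The common biological coefficient of variation was 10.0%. Replicate pairs differed beyond counting noise.

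Genes with mean log2 CPM of at least 1 and a symbol were named: in each direction the 10 largest changes and 6 smallest p among separated genes, up to 3 called members of each of 39 lists, a fixed set, and the genes at the edge of separation, 116 in all, of which some are not reported here. Members of lists outside this rule, Jund, the Pur genes and the lipid genes were picked after their values were seen. Of 610 list entries 2 matched no single gene. Gene symbols came from the files, 27 that a spreadsheet had turned into dates being restored by gene ID. The alternatives were other normalisations, DESeq2 1.42.0, no filter, 2 groups, a replicate block, limma 3.58.1 on the deposited FPKM, a straight length line, omission of mitochondrial genes, and omission of each library. The procedure was tested on simulated counts.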

Additional observations from a re-analysis of the deposited data

Results flagged for a closer look

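Single treated libraries stood apart from the other 5 in 5 of 116 named genes and in 1 of 17 library values, by a gap to the nearest value that took up most of the group's range (Dixon's test). Chance flags about 1 in 20 groups, so this number is near what chance gives. K4 replicate 1 had the highest Cyc1, at 246 CPM against 174 to 198 in the other treated libraries, and the highest summed blood markers, at 153 CPM against 54.7 to 89.5. Ketamine replicate 3 had the lowest Grin1, at 457 CPM against 485 to 497, and the lowest Zfp366, at 1.76 CPM against 2.69 to 3.12. K4 replicate 3 had the highest Lcn2, at 2.30 CPM against 0.694 to 0.890. Ketamine replicate 1 had the highest Pou3f2, a transcription factor of upper-layer neurons, at 34.7 CPM against 28.6 to 29.8.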

How the results depend on the processing

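Of the 103 named genes that were called, 61 were called in all 9 fits that left out 1 library and 56 in those and the 9 other edgeR or DESeq2 fits. Without Control replicate 1, 40 lost their call. Leaving out 1 library gave 587 to 1480 higher and 947 to 1813 lower genes on the deposited counts, 198 to 1360 and 335 to 1070 after length removal, 144 to 958 and 300 to 848 separated, and 0 to 12 separated genes called between the drugs. Such fits leave 2 libraries in a group and test fewer samples. The slope difference ranged from −0.0941 to −0.0794 and that of the mitochondrial share from −5.65 to −1.99 percentage points. With limma on the deposited FPKM, 875 genes were lower and 1812 higher, and the cause was not tested. Among the genes that separated in each fit, DESeq2 called 19 between the drugs, the fit with no filter 2 and the replicate block 1, and the cause was not tested. Of the 1129 separated genes, 874 were kept in all 9 other fits. Some genes that were not called changed sign: Gria2 was 0.0091 with upper quartile, 0.046 without Control replicate 1, −0.092 without Control replicate 2, 0.036 without Control replicate 3, 0.0039 without K4 replicate 2 and 0.00065 without Ketamine replicate 3. Egr1 was −0.073 without Control replicate 2, 0.18 without Control replicate 3, −0.18 without K4 replicate 2 and −0.061 without Ketamine replicate 3. Gria1 was −0.038 without Control replicate 2 and 0.099 without Control replicate 3. Grin2a was −0.15 without Control replicate 2 and 0.093 without Control replicate 3.

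The groups share replicate numbers, and the main fit did not pair libraries by them. Correlations of the deviations from group means were weak but positive between same-numbered libraries (0.0023 to 0.106). Between differently numbered ones they ran from −0.157 to 0.0688. Control replicate 3 was closer to K4 replicate 2 (0.0531) than to K4 replicate 3 (0.0023). Whether the numbers mark a shared batch was not tested. With the number as a replicate block, 1324 genes were higher and 1940 lower on the deposited counts, 842 and 944 after length removal, and 465 and 599 separated.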

Other observations

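Some genes of lipid synthesis, put together after their values were seen and so described without a test of the group, were lower in the treated libraries. Of 22 tested genes of sterol synthesis and uptake, 9 were called lower after length removal, none higher, and 7 separated, with a median log2 fold change of −0.17 and negative estimates in 21 (the share of all genes called lower was 4.98%). Hmgcs1, the synthase at the entry of the mevalonate pathway, stood at 435, 453 and 418 CPM in the Control libraries, 326, 343 and 315 after K4 and 299, 304 and 329 after ketamine. Every treated library was lower (−0.41 ± 0.053 (SE), adjusted p = 0.00177 by edgeR). Msmo1 (−0.51 ± 0.065 (SE), adjusted p = 0.00153) and Cyp51 (−0.48 ± 0.077 (SE), adjusted p = 0.00394), demethylating enzymes of later steps, and Insig1 (−0.31 ± 0.054 (SE), adjusted p = 0.00557), the retention protein of the sterol sensor, separated too. Srebf2, a transcription factor of sterol genes, was not called (−0.034, adjusted p = 0.727). Of 12 genes of fatty acid synthesis and desaturation 7 were called lower, none higher, and 6 separated. Scd, a desaturase, stood at 45.5, 58.8 and 38.5 CPM in the Control libraries, 29.2, 28.3 and 31.6 after K4 and 24.5, 22.7 and 29.3 after ketamine, with the treated group below all Control values (−0.69 ± 0.12 (SE), adjusted p = 0.00803). Fads2 (−0.52), Elovl6 (−0.53) and Acaca (−0.26) were lower and Fasn (−0.12, adjusted p = 0.182) was not called. Without Control replicate 1 the counts were 4 of 22 and 4 of 12, without Control replicate 2 or K4 replicate 3 the sterol count was 5, and without K4 replicate 3 or Ketamine replicate 2 the fatty acid count was 4.

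The 3 genes of the Pur family, picked after their values were seen, all separated lower. Pura stood at 74.6, 71.9 and 76.9 CPM in the Control libraries against 42.6 to 50.1 in the treated libraries (−0.45 ± 0.050 (SE), adjusted p = 0.00091). Purb (−0.53) and Purg (−0.45) were lower too, and each of the 3 was called in all 9 fits that left out 1 library. The 22 transfer RNA genes tested belong to the mitochondrial genome, as do the 13 protein genes described with it. Of these 22, 13 were called lower and none higher after length removal, against 6 lower on the deposited counts, and 6 separated. For all tested genes the shares called lower were 4.98% after length removal and 10.2% on the deposited counts, and 3.4% separated lower. Trne led them, at 15.9, 21.2 and 11.5 CPM in the Control libraries against 7.34 to 9.69 in the treated libraries (−1.08 ± 0.12 (SE), adjusted p = 0.00091). The 22 genes had a median log2 fold change of −0.49 on the deposited counts and −0.68 after length removal. Their median implied length was 0.0786 kb, below the 1st percentile of tested genes (0.480 kb), where few genes set the trend. The kit was one for mRNA and the strand setting of the counting is not given. Whether these counts come from transfer RNA or from neighbouring transcripts was not tested.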
